A study of Mus musculus with 2 samples.

Results

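The Ly6 genes Ly6c1, Ly6c2, Ly6g, Ly6a and Ly6e were followed in leukemic mouse promyelocytes profiled by single-cell RNA sequencing. They were selected by gene symbol, are 5 of the 32285 gene identifiers that both count matrices list, and each symbol matched 1 identifier. The cells were PLZF/RARA transformed progenitors from leukemic bone marrow. They were sorted as late promyelocytes that were Cd45.2+, C-Kit+, Gr1+ and FcγR+ and Cd34-. One group came from mice injected intraperitoneally for 7 days with retinoic acid (0.8 to 1 mg), the other from mice given its vehicle, corn oil with 10% DMSO. A cohort counted 3 to 5 mice, how many of them contributed cells to a library is not stated, and both groups carry the fusion, so there is no group without it. How the fusion was driven, and the age and strain of the mice, are not given in the sources used here.

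Ly6 proteins are small cell surface proteins held by a lipid anchor, with a compact domain that they share with the urokinase receptor. In the mouse, Ly6C marks monocytes and immature granulocytes, and Ly6G appears as granulocytes mature and is used as a neutrophil marker. The antibody against Gr1 binds Ly6G and also Ly6C. Ly6a encodes Sca-1, the antigen used to isolate blood stem cells and one that interferon induces, and Ly6e encodes a widely expressed family member that interferon also induces. All cells here were sorted as positive for Gr1, which Ly6C or Ly6G can give. The presence of Ly6c or Ly6g RNA as such is thus bound up with the gate and not a finding, although the gate does not require Ly6G.

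The members lie in 1 cluster on chromosome 15 (GRCm38, GENCODE M21). Ly6e spans chr15:74955051-74959905 on the plus strand and Ly6a spans chr15:74994877-74998031 on the minus strand. Ly6c1 (chr15:75044018-75048830) and Ly6c2 (chr15:75108158-75111970) lie on the minus strand, and Ly6g (chr15:75155240-75159126) on the plus strand. No other annotated gene overlaps any of them. The 250 bases before the RefSeq start of Ly6c1, Ly6c2 and Ly6g are shown 5′ to 3′ on the strand of each gene because the copies resemble each other while their RNA levels, given below, do not. Capitals mark AGGTCA, the hexamer that retinoid receptors bind, and GAGGAAGT, a motif of the myeloid factor PU.1, both searched on both strands. No matches overlapped. The sequences are from RefSeq (GRCm38.p6), which held 3 of the 5 members.
Ly6c1, chr15:75048838-75049087: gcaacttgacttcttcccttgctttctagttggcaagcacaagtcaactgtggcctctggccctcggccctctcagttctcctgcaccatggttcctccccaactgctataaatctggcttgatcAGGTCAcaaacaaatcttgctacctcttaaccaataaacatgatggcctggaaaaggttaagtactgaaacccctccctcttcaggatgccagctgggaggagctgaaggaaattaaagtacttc
Ly6c2, chr15:75111972-75112221: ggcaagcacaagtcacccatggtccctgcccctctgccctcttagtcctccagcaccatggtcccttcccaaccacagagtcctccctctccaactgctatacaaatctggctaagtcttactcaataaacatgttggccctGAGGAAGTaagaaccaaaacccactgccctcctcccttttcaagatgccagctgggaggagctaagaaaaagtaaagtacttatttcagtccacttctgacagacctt
Ly6g, chr15:75155011-75155260: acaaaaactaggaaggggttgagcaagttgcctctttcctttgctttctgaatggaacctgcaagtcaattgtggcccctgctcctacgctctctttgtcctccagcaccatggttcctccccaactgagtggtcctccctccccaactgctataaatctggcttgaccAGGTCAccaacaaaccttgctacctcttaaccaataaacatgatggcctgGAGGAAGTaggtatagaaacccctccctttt
In global alignments the stretches matched at 75.9% of aligned bases for Ly6c1 and Ly6c2, 83.5% for Ly6c1 and Ly6g, and 80.3% for Ly6c2 and Ly6g. AGGTCA was found before Ly6c1 and Ly6g and is held by 13.8% of 27025 promoters of the same length. GAGGAAGT was found before Ly6c2 and Ly6g and is held by 2.44% of them. A match is a run of letters and not a site shown to be bound.

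How far reads of these copies can be told apart bears on every value below. Over the last 300 bases of their longest annotated transcripts, near which this chemistry reads, Ly6c1 and Ly6c2 were 97.97% identical, and 29.9% of the 50-base stretches there occur in both genes. Their separate counts are therefore uncertain, since counting could have moved or dropped reads between them. Ly6g was 84.5% identical to Ly6c1 and 83.96% to Ly6c2 there and shared no 50-base stretch with either. Ly6a and Ly6e shared none with any other member.

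Each group held 1 library, so no difference has a replicate check, no test was made, and differences between mice, sorts or preparations are part of every ratio. Values are CPM, the UMIs of a gene per 1000000 UMIs of the kept cells (a UMI tags 1 captured RNA molecule). Since 3′ counting yields 1 tag for a molecule whatever its length, CPM were not divided by length. Intervals are exact 95% intervals and cover counting error only, as do the limits given for counts of 0. Those of CPM and ratios take UMIs as independent of each other. The kept vehicle cells numbered 5476 and carried 99107718 UMIs, at a median of 16750 per cell, and the 7140 kept retinoic acid cells carried 110088247, at a median of 14604. The libraries shared 11 cell barcodes. For values per cell, cells were drawn down at random to 5000 UMIs, leaving 5282 cells of the vehicle and 6659 of the retinoic acid library (194 and 481 were too shallow). Of the markers of other lineages, the 10 monocyte genes summed to 7.50 CPM (vehicle) and 4.63 CPM (retinoic acid), the 8 erythroid genes to 4.23 and 0.78 CPM, and the 7 genes of B and plasma cells to 2.60 and 2.34 CPM. Other lists were not sparse. The 9 basophil and mast cell genes summed to 806 and 68.1 CPM, led by Cpa3 at 569.9 and 0.0999 CPM, although Fcer1a of that list was at 0 in both. The 7 eosinophil genes summed to 125.7 and 34.7 CPM. The 7 T and NK genes summed to 1285 and 575 CPM, of which Nkg7 gave 1283 and 574.9, with Cd3e at 0 in both, and the 7 dendritic genes to 266 and 125.0 CPM, of which Bst2 gave 263 and 124. The 8 stem and progenitor genes summed to 99.96 and 1.998 CPM, and among them Cd34, which the sort gated against, had 53.8 and 0.118 CPM. Of the promyelocyte markers, Ctsg stood at 6444 and 5979 CPM, whereas Mpo stood at 311 and 0.4996 CPM and Elane at 62.8 and 7663 CPM. The libraries thus differed in genes that define promyelocytes, and the part of this in the Ly6 values was not tested.

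Over whole libraries, Ly6g was the member that differed. Its level was 35.6 CPM (34.5 to 36.8) among vehicle cells and 281 CPM (278 to 284) among retinoic acid cells, a 7.89-fold difference, or 2.98 on the log2 scale (2.93 to 3.03). The other 4 members differed by at most 1.10-fold either way. Ly6c2 had 4765 CPM (4751 to 4778) in the vehicle and 4326 CPM (4314 to 4338) with retinoic acid, a log2 ratio of −0.14. Ly6c1 had 1384 CPM (1377 to 1392) and 1296 CPM (1289 to 1303), a log2 ratio of −0.095. Ly6e had 3317 CPM (3306 to 3328) and 3221 CPM (3210 to 3232). Ly6a had 13.4 CPM (12.7 to 14.2) and 13.4 CPM (12.7 to 14.1). The log2 ratios of Ly6e and Ly6a, −0.042 and −0.0052, changed sign under TMM scaling, to 0.038 and 0.075, so neither has a direction, while those of Ly6c2 and Ly6c1 kept theirs at −0.059 and −0.015.

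These differences were set against all genes. Genes that reached 20 CPM in one or both libraries numbered 5548, of which 3.03% were at least 2-fold higher and 5.05% at least 2-fold lower in the retinoic acid library. Of the 5 members, 4 reached 20 CPM, and of these 1 was higher and 0 lower. The member below that limit was Ly6a. The log2 ratio of Ly6g was exceeded by 34 of the 5548 genes, while the median over the 5 members was −0.042 and the median over the 5548 genes was 0.006 (quartiles −0.25 and 0.24). The order of levels was Ly6c2, Ly6e, Ly6c1, Ly6g and Ly6a in both libraries. The 5 genes together made up 0.951% of vehicle UMIs and 0.914% of retinoic acid UMIs.

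**Figure D1:**
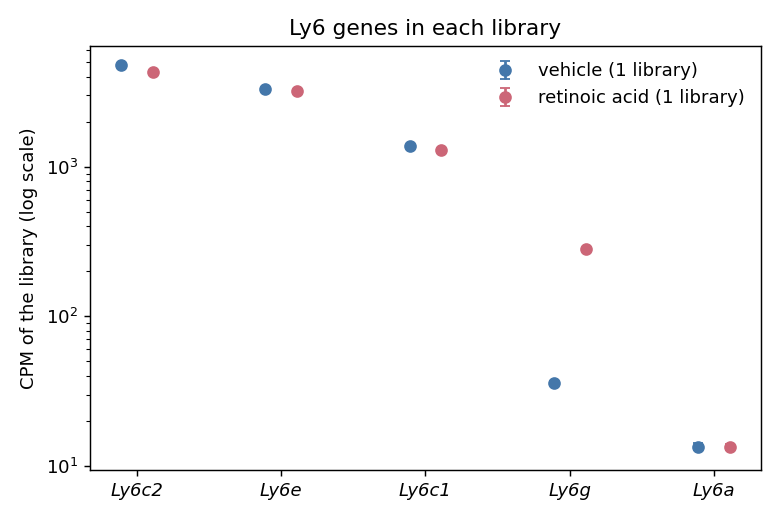
CPM of each Ly6 gene (log axis) in the vehicle and retinoic acid libraries, 1 library each, with exact 95% Poisson intervals, which are mostly smaller than the points. Ly6g lies at 35.6 and 281 CPM, while the points of each of the other genes nearly coincide.

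The ratios between members put the same result on a scale that does not depend on the library total. For each Ly6g UMI there were 133.7 Ly6c2 UMIs in vehicle cells and 15.4 in retinoic acid cells. Against its near copy the ratio hardly moved, with 3.44 Ly6c2 UMIs for each Ly6c1 UMI in the vehicle and 3.34 with retinoic acid. As rank among all genes, Ly6c2 stood at 32 and 34, and Ly6e at 59 and 53, whereas Ly6g went from rank 3515 to rank 471.

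The members also differed in how their RNA was spread over cells. At 5000 UMIs per cell, Ly6c2 was found in 99.94% of vehicle cells and 99.985% of retinoic acid cells, and Ly6e in 99.96% and 99.8%. Ly6c1 was found in 97.7% (97.2 to 98.1) and 97.5% (97.1 to 97.9). Ly6c2 had a median of 23 UMIs per vehicle cell (quartiles 17 and 30) and 21 per retinoic acid cell (quartiles 15 and 27). Its highest cells held 126 and 78 UMIs. Ly6e had medians of 16 and 15 UMIs and Ly6c1 of 7 and 6. These 3 genes were thus present throughout both sorted populations, and the middle ranges of Ly6c2 in the libraries overlapped.

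Ly6g was found in a minority of cells. Of 5282 vehicle cells 254 had a UMI (4.81%, 4.25 to 5.42), and of 6659 retinoic acid cells 2176 did (32.7%, 31.6 to 33.8). Without thinning the shares were 10.5% and 52.4%. Had the same number of UMIs been spread evenly over cells, 23.5% and 88.0% of cells would hold one, so the RNA was concentrated. Cells with 5 or more Ly6g UMIs numbered 62 (1.17%) among vehicle cells and 666 (10.0015%) among retinoic acid cells, and they carried 81.3% and 83.4% of its UMIs. Among the other retinoic acid cells with the gene, 990 held a single UMI.

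Free RNA in the droplets can give a cell a UMI of a gene it does not express, and no cell class that should lack Ly6g was available as a full background. No cell of either library held 3 or more of the monocyte, erythroid, T and NK or B and plasma markers. Among the vehicle cells, 634 held 3 or more basophil and mast cell markers, and Ly6g was found in 14.5% of them (11.9 to 17.5) at 184.5 CPM. It was found in 19.3% (10.05 to 31.9) of 57 vehicle cells with 3 or more eosinophil markers. These cells thus held Ly6g more often than the 4.81% over all vehicle cells, and they serve as no background. As the nearest measure of such a background, retinoic acid cells with few neutrophil transcripts (0.5% to 2% of UMIs, as defined below) had Ly6g in 9.74% of cells at 21.7 CPM. In the vehicle cells with the fewest (under 0.1%) it stood at 7.46 CPM. The part of free RNA in these low values was not tested.

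Ly6a was sparse. It had a UMI in 6.27% (5.63 to 6.95) of vehicle cells and, with retinoic acid, in 6.61% (6.02 to 7.23), close to the 7.01% and 6.88% that an even spread would give. At so few UMIs that closeness does not show evenness, and groups of cells differed. Ly6a was at 19.8 CPM in G1 and 8.10 CPM in G2/M in the vehicle, and at 17.6 and 11.5 CPM with retinoic acid (phases called as below). It was found in 10.4% (8.14 to 13.1) of the vehicle cells with 3 or more basophil and mast cell markers. No vehicle cell held more than 8 Ly6a UMIs, and no retinoic acid cell more than 4. Cells with 5 or more Ly6a UMIs, the number used for Ly6g above, numbered 1 in the vehicle and 0 with retinoic acid. Other genes of the stem and progenitor list differed widely between the libraries while Ly6a did not. Cd34 had 5336 and 13 UMIs and Gata2 4282 and 126, whereas Mecom and Meis1 were at 0 in both.

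**Figure D2:**
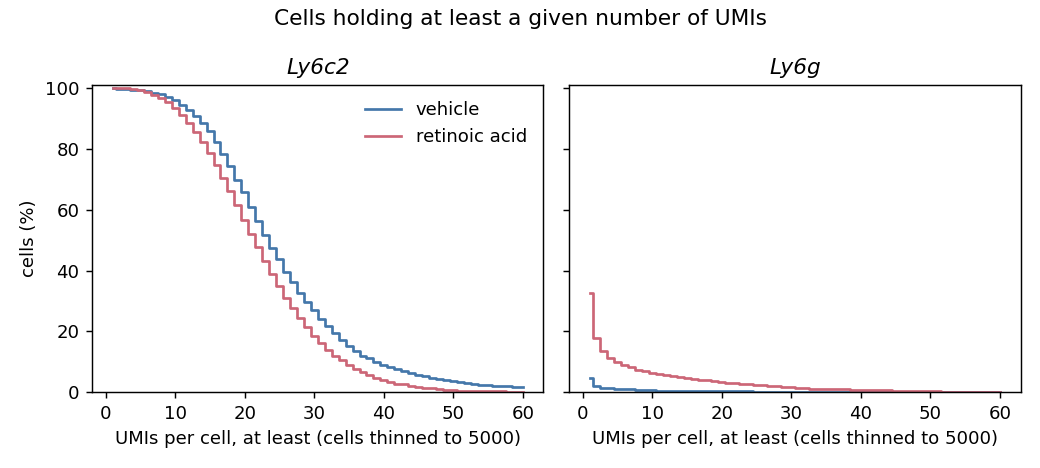
Percent of cells (vertical axis) with at least the number of UMIs on the horizontal axis, for Ly6c2 and Ly6g, in cells thinned to 5000 UMIs. The Ly6c2 curves of the libraries lie side by side, with medians of 23 and 21 UMIs, while the Ly6g curves start at 4.81% and 32.7% and drop within a few UMIs to a long tail.

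Ly6c2 and Ly6g were then compared within cells. Both were present in 253 vehicle cells (4.79%) and 2176 retinoic acid cells (32.7%), and Ly6c2 alone in 5026 (95.2%) and 4482 (67.3%). Ly6g without Ly6c2 was found in 1 vehicle cell and in 0 of 6659 retinoic acid cells, which allows a share of up to 0.0451%. Neither gene was found in 2 vehicle cells and 1 retinoic acid cell. Since only 3 vehicle cells and 1 retinoic acid cell lacked Ly6c2, this pairing says little beyond the near-complete presence of Ly6c2. More Ly6g than Ly6c2 UMIs were held by 18 vehicle cells (0.341%, 0.202 to 0.538) and 292 retinoic acid cells (4.39%, 3.91 to 4.90). The shares were 0.108% and 0.909% among cells deep enough to be thinned to 10000 UMIs, and cells rich in Ly6g were shallower than others. Those with 5 or more Ly6g UMIs had a median depth of 10276 (vehicle) and 8771 (retinoic acid) UMIs, against 17187 and 16275 for cells without the gene.

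The level of Ly6c2 along Ly6g ran differently in the libraries. In retinoic acid cells, Ly6c2 averaged 22.3 UMIs in 4483 cells without Ly6g, 22.6 in cells with 1 Ly6g UMI, 18.8 in cells with 6 to 10 and 16.7 in 394 cells with 11 or more. In vehicle cells it averaged 24.4 UMIs in 5028 cells without Ly6g, 31.6 in cells with 1, 37.7 in 26 cells with 6 to 10 and 34.7 in 30 cells with 11 or more. With retinoic acid the median of Ly6c2 was 21 UMIs without Ly6g and 15 at 11 or more Ly6g UMIs. In the vehicle it was 23 without Ly6g, 36 at 3 to 5 Ly6g UMIs, 34 at 6 to 10 and 27 at 11 or more. Ly6e was lower where Ly6g was high in both, going from 16.5 to 6.87 UMIs with retinoic acid and from 16.2 to 8.87 in the vehicle. The difference between the libraries in these patterns was not tested.

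Correlations of log(1 + UMIs) over cells describe the same pairs. All cells of a library share its preparation, and all were set to 1 depth. The part of that depth filled by neutrophil genes differs among cells, and its effect on these values was not tested. Ly6c1 and Ly6c2 had Pearson correlations of 0.61 over 5282 vehicle cells and 0.56 over 6659 retinoic acid cells, each being the nearest gene to the other in both libraries, a value that shared reads can raise. Ly6c2 and Ly6g had 0.088 and −0.17, and Ly6e and Ly6g −0.13 and −0.45. Ly6a reached at most 0.10 with any gene.

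**Figure D3:**
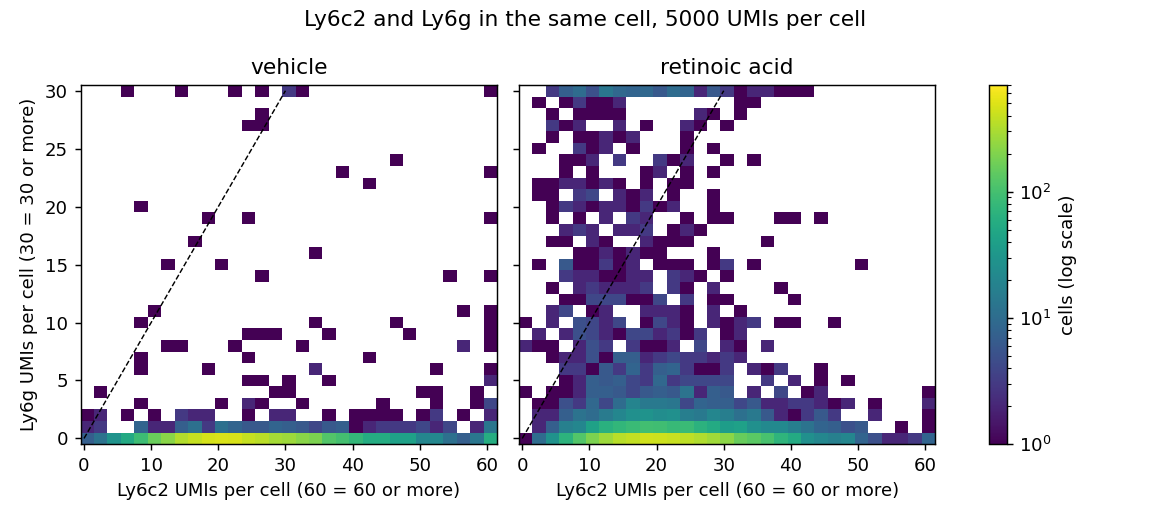
Number of cells (colour, log scale) by Ly6c2 UMIs (horizontal axis) and Ly6g UMIs (vertical axis) per cell at 5000 UMIs, with the last class on each axis holding all higher values and the dashed line marking equal counts. Nearly all cells lie above 0 on the Ly6c2 axis, and the retinoic acid panel holds the 292 cells in which Ly6g exceeded Ly6c2.

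To place the members along granulocyte maturation, each cell was given a maturation share, the percent of its UMIs in 25 neutrophil genes (Camp, Ngp, Ltf, Lcn2, S100a8, S100a9 and others), none of them a Ly6 gene. The same bins of this share were used in both libraries. The list summed to 3070 CPM in the vehicle and 65698 CPM with retinoic acid, and its genes differed unevenly. Camp stood at 175 and 18200 CPM and Pglyrp1 at 438 and 1054 CPM, whereas Anxa1 stood at 441 and 55.3 CPM and Cebpe at 401 and 359 CPM. Cells of the same bin can therefore differ between the libraries in the genes that make up their share. In retinoic acid cells Ly6g was higher in the bins with a larger share. It stood at 21.8 CPM at 0.1% to 0.5%, 21.7 CPM at 0.5% to 2%, 48.5 CPM at 2% to 5%, 167 CPM at 5% to 15% and 2019 CPM (1983 to 2055) at 15% and over. The 1201 cells of the last bin were 18.04% of cells and held 85.8% of Ly6g UMIs, with Ly6g found in 85.01% of them. For each 1000 UMIs of the maturation list there were 6.70 Ly6g UMIs at 0.1% to 0.5%. There were 1.80, 1.51 and 1.89 in the bins from 0.5% to 15%, and 7.27 in the last bin. The list is the divisor and also sets the bins, so a low bin has a high value wherever Ly6g stays level, as at 21.8 and 21.7 CPM. Only the step from 1.89 to 7.27 bears on the upper bins, over which Ly6g was not a fixed part of the neutrophil transcripts.

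Ly6c2 and Ly6c1 followed another course in those cells. Ly6c2 stood at 4089, 4351, 4571, 4643 and 3867 CPM over the same 5 bins, and Ly6c1 at 1175, 1270, 1352, 1406 and 1298 CPM. Ly6e was level at 3307, 3406, 3384 and 3212 CPM and then 2020 CPM in the last bin. The maturation genes fill much of the total there, and once the total was taken without them Ly6c2 in the last bin was at 5355 CPM and Ly6g at 2796 CPM. On that total the last bin had the highest Ly6c2 of the 5, so its place depends on the total used.

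The vehicle library differed within the same bins. Ly6g stood at 55.5 CPM in 3905 cells at 0.1% to 0.5%, against 21.8 CPM in 348 retinoic acid cells, a log2 ratio of −1.33 (−1.85 to −0.88). At 0.5% to 2% it stood at 65.96 CPM in 376 vehicle cells and 21.7 CPM in 1736 retinoic acid cells, a log2 ratio of −1.61 (−1.94 to −1.27). At 2% to 5% the values were 288 CPM in 41 vehicle cells and 48.5 CPM in 1752 retinoic acid cells. Only 2 of these 41 cells held 5 or more Ly6g UMIs. The shares of cells with a Ly6g UMI were alike in this bin, 19.5% (8.82 to 34.9) for vehicle and 19.0% for retinoic acid. Only 30 and 18 vehicle cells lay in the upper bins, so values there rest on few cells. At 5% to 15% Ly6g stood at 227 CPM in vehicle cells and 167 CPM in retinoic acid cells. The log2 ratio was −0.46 (−0.93 to 0.095), so the counts do not settle its sign. The Ly6g intervals in all these groups take UMIs as independent, yet 62 vehicle cells held 81.3% of that library's Ly6g UMIs. They are thus too narrow for the spread over cells, and an interval without 0 does not settle a sign either. At 15% and over Ly6g stood at 900 CPM (715 to 1119) in vehicle cells and 2019 CPM in retinoic acid cells. The log2 ratio there was 1.16, below the 2.98 over whole libraries. In the vehicle, 76.5% of Ly6g UMIs lay in cells at 0.1% to 0.5%, close to the 73.9% of cells in that bin. Ly6c2 and Ly6c1 differed in these bins too. Ly6c2 was at 5171 CPM (vehicle) and 4089 CPM (retinoic acid) at 0.1% to 0.5%, and at 5593 and 4351 CPM at 0.5% to 2%, log2 ratios of −0.34 and −0.36. Above that the order turned, with 3429 and 4571 CPM at 2% to 5%, 2273 and 4643 CPM at 5% to 15%, and 1589 and 3867 CPM in the last bin with its 18 vehicle cells. Ly6c1 turned in the same way, with log2 ratios of −0.36 and −0.31 and then 0.65, 1.54 and 1.72. Over all cells under 5%, a limit chosen after the values were seen, Ly6g was at 49.7 CPM with vehicle and at 33.9 CPM with retinoic acid, a log2 ratio of −0.55 (−0.69 to −0.41), the opposite sign of the ratio over all cells. Under 15% the ratio was 0.53 (0.43 to 0.63). The higher Ly6g of the retinoic acid library was thus held by its cells with the most neutrophil transcripts, while below 5% the CPM was higher in vehicle cells. By share of cells with a Ly6g UMI the lower bins ran otherwise, with 4.53% (3.90 to 5.23) of vehicle and 10.3% (7.35 to 14.0) of retinoic acid cells at 0.1% to 0.5%, and 8.78% and 9.74% at 0.5% to 2%. The vehicle excess in CPM lay in few cells, since 47 of the 3905 vehicle cells at 0.1% to 0.5% held 5 or more Ly6g UMIs, against 0 of the 348 retinoic acid cells. It also lay in G1, at 95.2 against 20.5 CPM in that bin, whereas vehicle cells stood at 5.49 against 33.0 CPM in S and 12.3 against 16.6 CPM in G2/M.

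**Figure D4:**
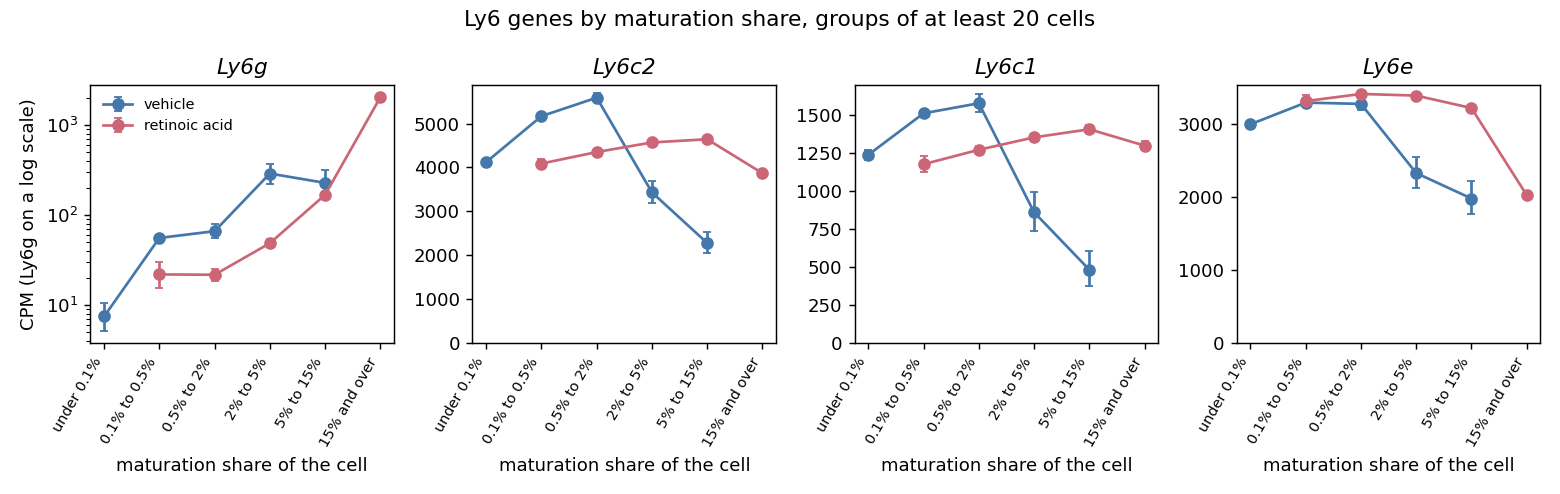
CPM of Ly6g (log axis), Ly6c2, Ly6c1 and Ly6e (linear axes from 0) by maturation share of the cell, in bins of at least 20 cells, with exact 95% Poisson intervals. Ly6g climbs to 2019 CPM in the highest retinoic acid bin, and its vehicle points lie above those of retinoic acid from 0.1% to 15%. The vehicle points at 2% to 5% and 5% to 15% rest on 41 and 30 cells. For Ly6c2 and Ly6c1 the vehicle points lie below from 2% up.

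The vehicle cells that carried Ly6g were unlike those of the retinoic acid library. Of the 62 vehicle cells with 5 or more Ly6g UMIs, 54 had a maturation share under 2%, and their median share was 0.25%, against 0.18% in cells without Ly6g. A share of 2% or over was still more frequent among the 62, at 12.9%, than among vehicle cells without Ly6g, at 1.17%. All 666 retinoic acid cells with 5 or more Ly6g UMIs lay at 2% or over, with a median of 32.8%. Of the retinoic acid cells without Ly6g, 57.97% did. In the vehicle the 5 genes nearest to Ly6g over cells were Ccl6 and Ccl9, which encode chemokines of myeloid cells, Akr1c18, an aldo-keto reductase, Furin, a protease that cuts proproteins, and Cdkn2a, a cell cycle inhibitor. Their correlations were 0.68, 0.42, 0.49, 0.42 and 0.35. In the retinoic acid library the nearest genes were Lcn2 and Ltf, which encode secondary granule proteins, Ifitm6, Retnlg and Ceacam10, with correlations of 0.74, 0.69, 0.73, 0.72 and 0.69.

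The same genes were looked up in the opposite library. Ccl6 kept a correlation of 0.52 with retinoic acid, whereas Akr1c18, Furin, Ccl9 and Cdkn2a lay between −0.045 and 0.044. In retinoic acid cells with 5 or more Ly6g UMIs and in those without Ly6g, Akr1c18 was at 0.901 and 0.0892 CPM. Ccl9 was at 1.20 and 4.77 CPM there, and Furin at 20.4 and 13.4 CPM. With so few UMIs, above all of Akr1c18 and Ccl9, a correlation could hardly appear. The retinoic acid genes lay between 0.11 and 0.26 in the vehicle. Ccl6 was at 7761 CPM in the 62 vehicle cells and 54.0 CPM in vehicle cells without Ly6g, and at 475 and 8.83 CPM in the corresponding retinoic acid cells. Cdkn2a was at 2013 and 147 CPM in the vehicle cells and 15.9 and 12.9 CPM in the retinoic acid cells. Lcn2 was at 13886 and 757 CPM in the retinoic acid cells and 1671 and 220 CPM in the vehicle cells. In the vehicle that higher level was held by few cells, since Lcn2 was found in 43.5% of the 62 cells and 52.6% of those without Ly6g. Because these genes were picked for their correlation in 1 library, their values there are a description only.

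Markers of other granulocytes were also higher in the 62 vehicle cells. The 9 basophil and mast cell genes summed to 1829 CPM, against 867 CPM in vehicle cells without Ly6g, and the 7 eosinophil genes to 723 against 139 CPM. Mcpt8, a basophil protease, was at 503 against 117 CPM, while Cpa3, a mast cell protease, was at 235 against 648 CPM. Ctsg, the granule protease cathepsin G, was at 623 against 6247 CPM, and it was also low in the 666 retinoic acid cells, at 523 against 6632 CPM. It was the gene with the lowest correlation with Ly6g in both libraries, −0.41 and −0.70. The part of these other markers in the Ly6g values was not tested, and the cells were given no type name.

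**Figure D5:**
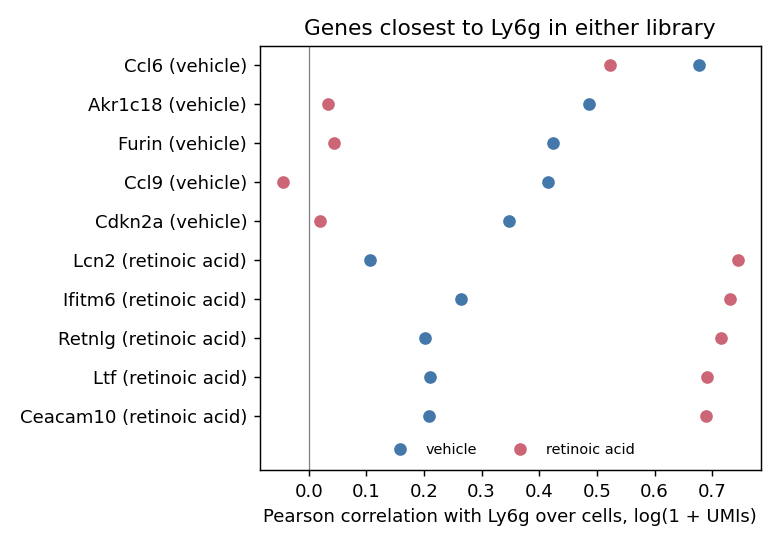
Pearson correlation with Ly6g over cells (horizontal axis) for the 5 genes nearest to it in the vehicle and the 5 nearest in the retinoic acid library, with the library they were picked in after each name. Ccl6 lies at 0.68 and 0.52, and the other 4 genes picked in the vehicle lie near 0 with retinoic acid. Of these 4, Akr1c18 and Ccl9 were nearly absent from the retinoic acid cells.

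Among cell cycle phases, called from S and G2/M genes, Ly6g was highest in cells without either program. In the retinoic acid library it stood at 1178 CPM in G1, 180 CPM in S and 121 CPM in G2/M, and in the vehicle at 93.3, 4.76 and 11.1 CPM. Of the cells with 5 or more Ly6g UMIs, 95.2% (vehicle) and 71.2% (retinoic acid) were called G1, against 51.4% and 22.1% of cells without the gene. Ly6c2 varied less, from 4182 CPM in G2/M to 4573 CPM in S with retinoic acid, and from 4338 CPM in G2/M to 5519 CPM in G1 in the vehicle. Ly6e ran the opposite way in both, at 2735 CPM in G1 and 3436 CPM in G2/M with retinoic acid and at 2907 and 3658 CPM in the vehicle. In retinoic acid cells at 15% and over, Ly6g was at 3167 CPM in G1, 757 CPM in S and 622 CPM in G2/M. In the bins below, the phases were closer, at 185, 151 and 170 CPM from 5% to 15%, 45.95, 41.96 and 53.3 CPM from 2% to 5%, and 19.6, 22.2 and 22.2 CPM from 0.5% to 2%.

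Nearest neighbours of the remaining members were as follows. For Ly6c2 they were, after Ly6c1, Slpi (0.39), Srgn, Cpa3 and Cyp11a1 in the vehicle, and Elane (0.34), Prtn3, Gstm1 and Srgn with retinoic acid. Elane and Prtn3 encode primary granule proteases, and Srgn encodes the granule proteoglycan serglycin. For Ly6c1 they were Slpi, Cyp11a1, S100a6 and Ifitm1 in the vehicle, and Prtn3, Elane, Ifitm1 and Thy1 with retinoic acid, all between 0.20 and 0.29. For Ly6e they were Ppia (0.33), Ctsg, H2afz, Ddost and Hmgb2 in the vehicle, and Ppia (0.48), Ctsg, Rpl8, Rpl3 and Ms4a3 with retinoic acid. For Ly6a only Cyp11a1 reached 0.10, in the vehicle.

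The wider Ly6/uPAR family was read from a list of 40 other genes, of which 38 had an identifier. Of these, 7 reached 5 CPM in either library, with 2 at least 2-fold higher and 3 at least 2-fold lower in the retinoic acid library, and 12 had no UMI in either. Over all 9145 genes at that limit the shares were 3.34% and 6.76%. Beside the members on chromosome 15, Ly6i stood at 24.7 and 64.8 CPM, a log2 ratio of 1.39, and Ly6k stood at 630 and 350 CPM, a log2 ratio of −0.85. Cd177, a neutrophil surface antigen that is also part of the maturation list, was at 13.1 and 311 CPM. Plaur, the urokinase receptor, was at 58.6 and 35.7 CPM. Lypd6b was at 14.6 and 2.33 CPM, Lypd6 at 6.33 and 0.627 CPM, and Cd59a, an inhibitor of complement, at 7.33 and 2.95 CPM. The median log2 ratio of the 7 was −0.85, against −0.014 for the 9145 genes.

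Since Ly6a and Ly6e are induced by interferon, 15 interferon response genes were set beside them. Ifitm3, the most abundant, was at 1373 and 1021 CPM, and Bst2 at 263 and 124 CPM. Ly6a and Ly6e lay within 1.03-fold between the libraries while these genes differed in both directions. Ifi27l2a was at 24.8 and 64.8 CPM and Ifit1 at 1.45 and 0.509 CPM, both named after their values were seen. The Ifit1 UMIs came from few cells, 144 in 13 vehicle cells and 56 in 24 retinoic acid cells.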

How the data were processed

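Polyadenylated RNA of sorted cells was captured with the 10x Genomics Chromium 3′ v2 kit at a target of 6000 cells per library, per the labels' protocols. The authors deposited raw UMI counts per gene and cell barcode, which per the file headers came from Cell Ranger 4.0.0. The submitters' processing notes name mm10 and GRCm38.p4. The rule separating cells from empty droplets is not given in the sources used here. The deposited counts were not normalised.

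Cells with at least 1000 UMIs, 500 genes and at most 10% mitochondrial UMIs were kept, which removed 310 vehicle and 276 retinoic acid barcodes. Scrublet (scanpy 1.11.5) called 2 and 5 doublets, too few to be taken as working, so none were removed. CPM, shares and ratios were computed in Python 3.11.15. Log2 ratios are retinoic acid over vehicle with 0.5 counts added, with exact binomial intervals given the sum of both counts. Shares carry exact Clopper-Pearson intervals. A sum of 0 allows up to 3 counts. Phases were called with scanpy on cells thinned to 5000 UMIs. TMM factors came from edgeR 4.0.16. Promoters and transcripts were aligned with Biopython 1.88. The calculation was tested on simulated data.

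Named were the 5 members, family genes with at least 5 CPM, the 5 genes with the highest correlation with each member at 0.1 or more (among genes with at least 20 CPM), and the 2 most abundant interferon genes. Other marker genes named were chosen after their values were seen. Members and lists were chosen with earlier results of these data known. With 1 library per group no replicate could be left out.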

Additional observations from a re-analysis of the deposited data

How the results depend on the processing

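Of 102 recomputed values, 36 lay inside the interval of the main value (for counts of genes, within 1.5 times it), and 1 changed sign after a call: the Ly6g log2 ratio of 2.98 became −0.55 in cells with a maturation share under 5%. Cells under 5% and under 15% were chosen after seeing the data. All deposited barcodes and a mitochondrial limit of 5% moved none of the 5 ratios beyond that interval.

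For Ly6g the ratio was 3.06 with TMM scaling, 2.91 with equal weight for every cell, 3.07 with the maturation list left out of the total and 0.53 in cells under 15%. For Ly6c2 the same settings gave −0.059, −0.21, −0.046 and −0.15, removal of the highest doublet scores −0.15 and cells under 5% −0.18. For Ly6c1 they gave −0.015, −0.15, −0.0014 and −0.13, and cells under 5% −0.17. For Ly6e they gave 0.038, −0.068, 0.051 and 0.051, and cells under 5% 0.070. Ly6a moved beyond its interval in cells under 5%, to −0.18.

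The share of cells with a Ly6g UMI depended on depth, as the setting itself implies. It was 3.94% and 26.8% at 3000 UMIs, 5.94% and 38.4% at 10000 UMIs and 10.5% and 52.4% without thinning, for vehicle and retinoic acid in turn. The share with more Ly6g than Ly6c2 was 5.43% for retinoic acid at 3000 UMIs, and 0.108% and 0.909% at 10000 UMIs, where shallow cells drop out. Genes at least 2-fold higher and lower numbered 305 and 618 at 5 CPM and 2063 and 4018 without a limit, as more genes were compared. Of 44 values for shares of the other members and for bins, 31 moved beyond their interval. In the highest retinoic acid bin Ly6g was at 3138 CPM with S100a8 and S100a9 left out of the list. The cause of the other changes was not tested. No paired analysis was possible because there was a single library for each treatment.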
